A study of Mus musculus with 10 samples.

Results

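The genes described here are 52 homeobox and Pax transcription factor genes of the mouse: the Barhl (2 genes), Dlx (6), Emx (2), Irx (4), Lhx (5), Lmx (2), Msx (3), Nkx (13), Pax (8) and Pitx (3) genes with 4 genes of the family of Six2, Six4 and Six5, all on chromosomes 1 to 19. They were taken by symbol from 20665 protein-coding genes, leaving out 9 named relatives, and no measured value was used to choose them. Each gene was described over a window made of its annotated body plus 5 kb on either side. The windows of Dlx1 and Dlx2, and those of Dlx6 and Dlx5, overlap, so the 52 genes stand for 50 separate places in the genome.

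The study set Casz1 conditional knockout (cKO) retina against control retina in the C57BL/6 strain. Casz1 is a zinc finger transcription factor of retinal progenitors. Accessible DNA, where the Tn5 transposase can cut, was mapped by ATAC-seq in 2 cKO and 2 control libraries. These came from explants labelled postnatal day 2, given plasmids coding for GFP with Cre or for GFP alone and kept 2 days ex vivo, after which 50000 live GFP-positive cells were sorted per library. Sorted cells are the ones that took up plasmid. The histone marks H3K27ac and H3K27me3 were mapped by ChIP-seq in 1 cKO and 1 control library each, from retina dissected at postnatal day 0, and cKO tissue was taken from the peripheral retina by its fluorescence. Control samples of both assays carry the genotype label wild type. The source of Cre in the ChIP-seq animals, the number of animals and whether control tissue was also peripheral are left unstated in the sources used here, so position in the retina and genotype cannot be told apart.

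Homeobox and Pax genes encode DNA-binding proteins that give cells their regional and type identity during development. H3K27me3 is deposited by Polycomb repressive complex and, in most tissues, lies as broad domains over those of these genes that are silent there. H3K27ac marks active promoters and enhancers, and the same lysine cannot carry both marks on 1 histone tail. A few of the genes work in the neural retina itself. Barhl2, Dlx1, Dlx2, Irx2, Irx3, Irx4, Lhx3 and Lhx9 are known from ganglion, amacrine or bipolar cells, and these 8 are called the neural retina group below. A group of 6 genes, among them Pax2, Pitx3, Lmx1b, Msx1 and Msx2, acts in eye tissue outside it, such as the optic stalk, lens and periocular mesenchyme. The other 38 are known mainly from brain regions, muscle, kidney, pancreas, thyroid, skeleton and other tissues.

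The deposited lists give peak positions only, so the quantity used is the number of bases of a window covered by peaks, and the sequencing depth behind it is unknown. The ATAC lists differed widely in length, with 91931 and 59574 peaks in cKO replicates 1 and 2 and 39636 and 108569 peaks in control replicates 1 and 2, and the longest list of each genotype carries a different replicate number. Histone lists were closer, at 76177 peaks in cKO and 70458 in control for H3K27ac and at 67849 in cKO and 69708 in control for H3K27me3. All 7 neural retina progenitor markers carried H3K27ac in both genotypes, with a median 70.38% of the window in cKO and 73.25% in control. Vessel markers carried it at 4 of 5 genes (23677 bp in cKO and 29816 bp in control), pigment epithelium markers at 3 of 5 (4785 bp in cKO and 4705 bp in control) and microglia markers at 2 of 5 in cKO (888 bp) and 4 of 5 in control (1076 bp). Lens markers carried it at 4 of 5 genes (3756 bp in cKO and 4035 bp in control). Muscle and liver markers carried it at 2 of 5 (1353 bp in cKO and 1327 bp in control). Tie1, Rpe65, Tyr, C1qa, Lim2, Myod1, Myog and Alb had none in either genotype.

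The start regions of 4 genes on which the results below turn are given from RefSeq (GRCm38.p6, the assembly called mm10), each from 250 bases before to 50 bases after an annotated start, 5′ to 3′ on the gene's strand. Irx2 and Six2 each had an H3K27ac peak near the start in 1 genotype only, Barhl2 had the most H3K27ac of the neural retina group, and Lhx9 the most H3K27me3 bases of it. Capitals mark CG dinucleotides, which are dense in the promoters that Polycomb complexes occupy in many cell types.
Irx2, chr13:72628570-72628869, plus strand: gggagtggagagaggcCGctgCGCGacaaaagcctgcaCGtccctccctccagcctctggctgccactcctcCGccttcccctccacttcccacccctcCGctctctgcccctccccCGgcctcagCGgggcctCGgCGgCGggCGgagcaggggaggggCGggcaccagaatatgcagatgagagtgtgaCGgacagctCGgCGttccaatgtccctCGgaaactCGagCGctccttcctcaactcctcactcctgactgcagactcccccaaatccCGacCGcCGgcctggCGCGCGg
Six2, chr17:85688205-85688504, minus strand: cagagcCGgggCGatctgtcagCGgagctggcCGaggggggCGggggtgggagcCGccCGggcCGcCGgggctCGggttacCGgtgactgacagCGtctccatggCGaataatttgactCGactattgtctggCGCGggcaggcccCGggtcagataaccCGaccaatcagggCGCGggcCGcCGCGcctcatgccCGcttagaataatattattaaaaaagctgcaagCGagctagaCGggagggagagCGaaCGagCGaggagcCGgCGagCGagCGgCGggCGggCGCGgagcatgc
Barhl2, chr5:106458117-106458416, minus strand: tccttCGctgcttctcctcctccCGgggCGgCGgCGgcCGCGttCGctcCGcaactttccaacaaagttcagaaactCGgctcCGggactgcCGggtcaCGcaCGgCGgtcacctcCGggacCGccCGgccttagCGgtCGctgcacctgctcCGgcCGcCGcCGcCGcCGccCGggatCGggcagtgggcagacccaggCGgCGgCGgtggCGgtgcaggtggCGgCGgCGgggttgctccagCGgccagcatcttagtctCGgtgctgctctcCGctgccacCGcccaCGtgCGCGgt
Lhx9, chr1:138842395-138842694, minus strand: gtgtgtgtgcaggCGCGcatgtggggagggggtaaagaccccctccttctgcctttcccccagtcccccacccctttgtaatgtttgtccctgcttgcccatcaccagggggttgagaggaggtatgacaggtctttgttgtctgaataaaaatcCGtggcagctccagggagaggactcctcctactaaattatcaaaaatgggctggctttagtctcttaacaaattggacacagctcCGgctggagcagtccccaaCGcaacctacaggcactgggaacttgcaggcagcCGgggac
The fifth, Six5, was chosen after its values were seen, as the gene with the smallest covered share of H3K27me3.
Six5, chr7:19094294-19094593, plus strand: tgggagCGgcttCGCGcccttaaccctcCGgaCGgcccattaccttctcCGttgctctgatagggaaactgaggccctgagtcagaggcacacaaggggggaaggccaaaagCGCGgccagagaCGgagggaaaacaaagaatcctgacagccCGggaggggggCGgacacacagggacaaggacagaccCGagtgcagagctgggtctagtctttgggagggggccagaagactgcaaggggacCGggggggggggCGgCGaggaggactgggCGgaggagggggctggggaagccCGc
The 5 windows held 25 CG dinucleotides at Irx2, 37 at Six2, 42 at Barhl2, 6 at Lhx9 and 17 at Six5. Barhl2 had the most of any matched start among the 52 genes. For the set, 38 genes matched the RefSeq table with 45 start windows, and these held a median of 20 CG dinucleotides (quartiles 14 to 28, range 4 to 42). Over all 20085 start windows of the table the median was 14 (quartiles 4 to 25). The median GC content was 61.67% in the 45 windows and 57% in all windows. The letters TAATTA, a core that many homeodomains bind and which reads the same on both strands, occurred in 3 of the 45 windows (6.667%), at Barhl1, Emx2 and Msx2, and in 899 of all windows (4.476%).

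Most of the 52 genes lay largely or wholly under H3K27me3 in both genotypes. The mark covered a median of 96.58% of the window in cKO and 96.5% in control, against a median of 0% in both genotypes over the other protein-coding genes. Every one of the 52 had a peak in both lists, and so did 48.72% of all genes in cKO and 49.16% in control. It covered more than 50% of the window at 46 of the 52 genes in each genotype (88.46%), and at 849 of all genes in cKO (4.108%) and 861 in control (4.166%). The window was covered to the last base at 20 of the 52 genes in both genotypes. Among these were Emx2, which patterns the cerebral cortex, Nkx2-1, which specifies thyroid and lung, Nkx6-1 of pancreatic and spinal progenitors, Msx1 of teeth and limbs, and Irx1, Irx2 and Irx4.

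**Figure D1:**
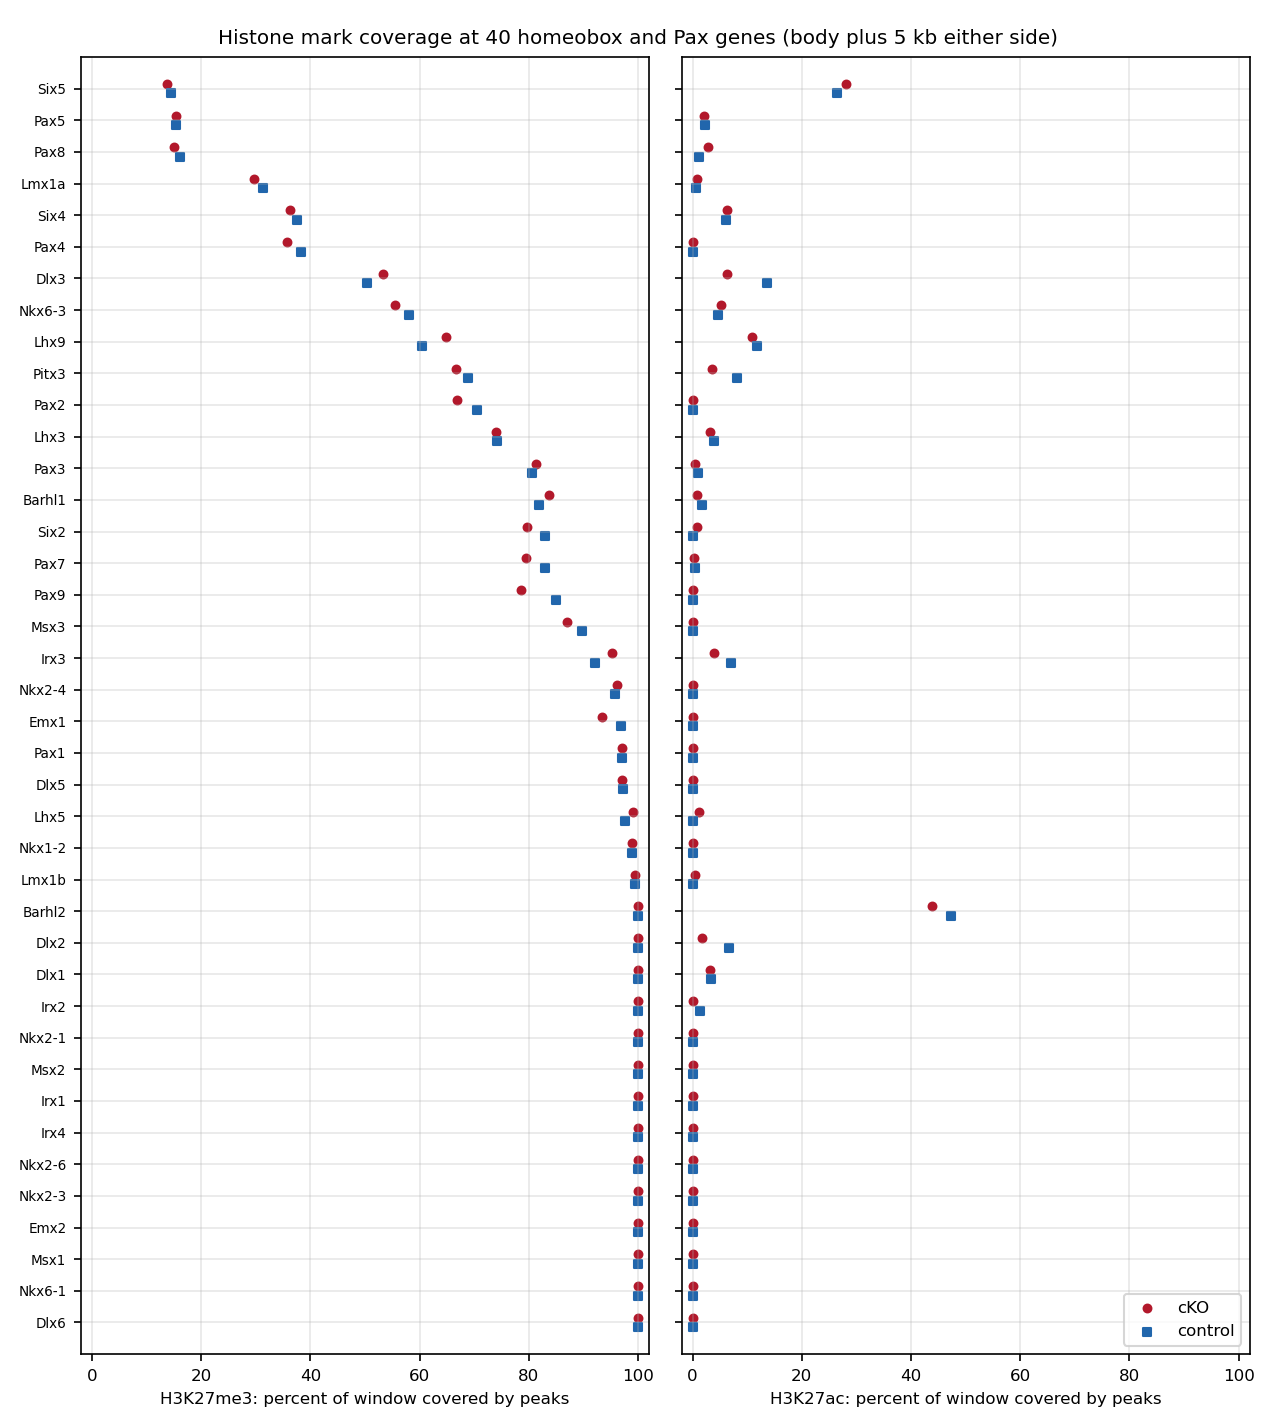
Share of each gene's window (body plus 5 kb either side, x axis, percent) covered by H3K27me3 peaks (left) and H3K27ac peaks (right) at 40 of the 52 genes, ordered by H3K27me3 in control; 1 circle per cKO library and 1 square per control library. Most genes sit near 100% for H3K27me3 and near 0% for H3K27ac, and Barhl2 stands out with 100% H3K27me3 and H3K27ac over 43.9% of the window in cKO and 47.4% in control.

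The genes with a known role in the retina were also under the mark. The neural retina group had more than 50% coverage at 8 of 8 genes, with a median of 100% in both genotypes, and 5 of the 8 were wholly covered. The 6 genes of other eye tissues all passed 50%, with medians of 99.75% in cKO and 99.7% in control. The remaining 38 genes passed it at 32, with medians of 94.4% in cKO and 95.26% in control. Within the neural retina group, Lhx9, known from amacrine cells, had the smallest covered share, 64.9% in cKO and 60.4% in control, followed by Lhx3, known from bipolar cells, at 74.0% in cKO and 74.2% in control.

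The 6 genes under 50% were the same in both genotypes. Six5, which is expressed in many tissues, had 13.8% in cKO and 14.5% in control. Pax8, of thyroid and kidney, had 14.99% in cKO and 16.1% in control, and Pax5, of the B cell lineage and the midbrain, 15.5% in cKO and 15.3% in control. These shares come from windows of very different length: the Pax5 window is 195947 bp long and its mark amounted to 30352 bp in cKO and 30016 bp in control, while the Six5 window is 14006 bp and held 1937 bp in cKO and 2033 bp in control. Lmx1a, of midbrain dopamine progenitors, Six4, of muscle progenitors, and Pax4, of islet cells, lay between 29.7% and 38.3% in both lists. Near the start it was called at all 52 genes in both genotypes.

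Compared with its relatives, the set stood between them. The 39 Hox genes were covered to a median of 100% in both genotypes, 41 forkhead genes to 38.9% in cKO and 37.67% in control, and the 8 homeobox relatives that act in retinal progenitors or neurons (Lhx1, Lhx2, Lhx4, Irx5, Irx6, Six3, Six6 and Pax6) to 47.15% in cKO and 47.35% in control. H3K27ac ran the other way at these 8 relatives, with medians of 48.56% of the window in cKO and 54.03% in control, against 0% in both genotypes at the 52 genes. These are descriptions of single libraries with no test.

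**Figure D2:**
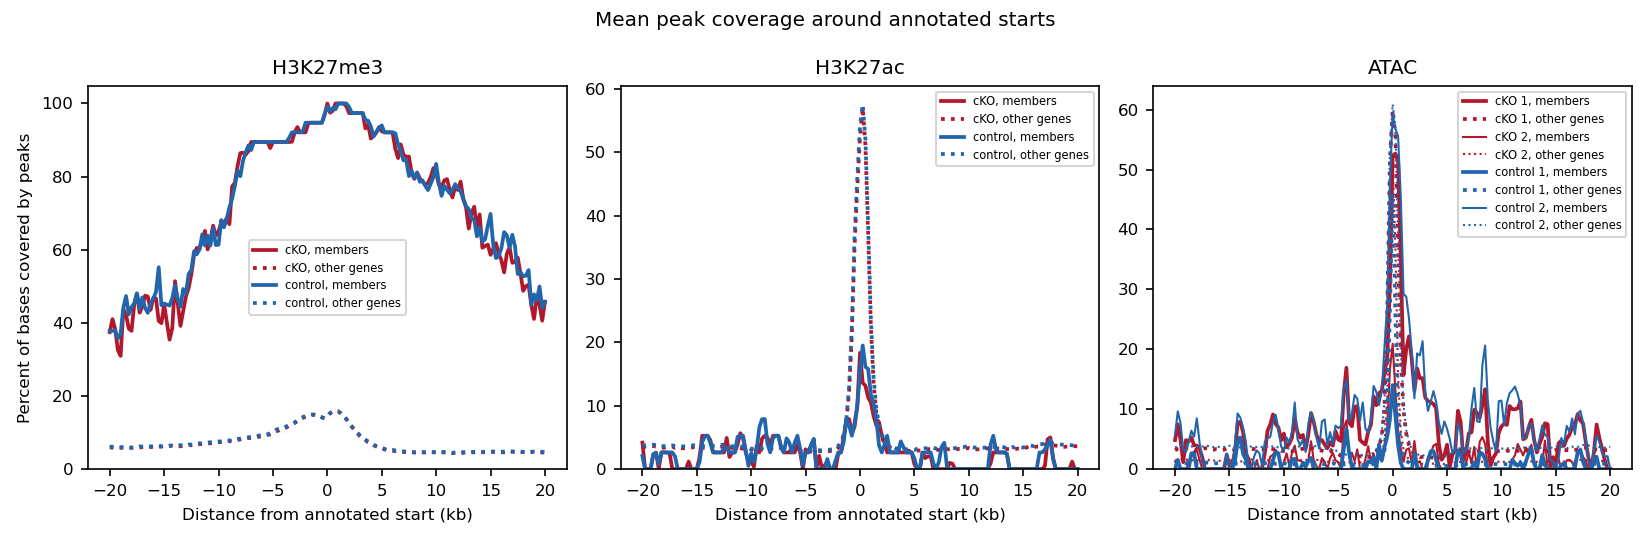
Mean percent of bases covered by peaks (y axis) by distance from the annotated start (x axis, kb, negative before the start) at the 38 genes with a start in the RefSeq table (solid) and at 16365 other genes (dotted), for H3K27me3, H3K27ac and ATAC; cKO in red and control in blue, 1 line per library. H3K27me3 at the 38 genes is a broad plateau, while H3K27ac and ATAC are narrow at the start, and the H3K27ac peak is lower than at other genes.

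Around the start the mark formed a plateau and not a point. At 38 genes with a known start, mean H3K27me3 coverage was 100% in cKO and 99.05% in control at the start, 65.0% in cKO and 61.37% in control 10 kb before it, and 45.79% in cKO and 45.59% in control 20 kb after it. Other genes had 14.27% in cKO and 14.52% in control at the start. H3K27ac at the start was 18.35% in cKO and 15.23% in control for the 38 genes, against 52.51% in cKO and 54.18% in control for other genes. Of the 45 start windows, 44 were wholly inside H3K27me3 peaks in cKO and 43 in control, while 8 touched an H3K27ac peak in cKO and 6 in control. ATAC peaks covered 52.34% and 20.93% of the bases at the start of the 38 genes in cKO replicates 1 and 2, and 14.03% and 59.26% in control replicates 1 and 2. At other genes the values were closer together, 59.91% and 51.55% in the cKO replicates and 45.96% and 60.91% in the control replicates. The Irx2, Six2, Barhl2 and Lhx9 starts printed above are among those wholly covered by H3K27me3.

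H3K27me3 was so broad over the 52 genes that little room was left for a gain. A 1.5-fold gain would have fitted inside the window at 11 of the 52 genes, and losses were not limited in this way. No gene was past 1.5-fold in either direction with at least 500 bp in the higher library, the fold used here in place of a test since there is 1 library per genotype. Over all 10769 genes with the mark, 5.53% were past it with more in cKO and 7.35% with less, but these genes mostly had far less of the mark, so the shares are not like for like. Covered bases were more in cKO at 12 genes, fewer at 20 and equal at 20, and over all genes with the mark the shares were 44.5% more, 53.9% fewer and 1.58% equal. The equal genes are those wholly covered in both lists. When both lists were scaled to the same total coverage, which moves every gene by 0.03 on the log2 scale, 38 genes had more in cKO and 14 fewer. The 20 wholly covered genes are among the 38 by construction. Of the other 32, 18 had more in cKO and 14 fewer after scaling, against 12 and 20 before it. With 50 kb either side, a window added after seeing the data and less filled by the mark, 39 of the 52 genes (75%) had fewer bases in cKO and 13 more, and over all genes with the mark the shares were 57.18% fewer and 42.66% more. In all, 1108199 bp of the windows were covered in both lists, 27558 bp in cKO alone and 41818 bp in control alone. So 94.11% of the bases covered in either were shared, against 74.33% over all gene windows. The 20 windows wholly covered in both lists can only count as shared, so these 2 shares are not like for like either.

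The larger single differences were losses at a few long Pax and Lmx genes. Pax7, of muscle stem cells and the dorsal neural tube, had 84572 bp in cKO and 88377 bp in control, and Pax2, of the optic stalk and kidney, 67935 bp in cKO and 71643 bp in control. Lmx1a followed with 50600 bp in cKO and 53389 bp in control, and then Pax9, of tooth and sclerotome, with 24452 bp in cKO and 26461 bp in control. Each is a change of less than 1.5-fold. Six2, of kidney progenitors, had 28331 bp in cKO and 29443 bp in control, and the cortical gene Emx1 24785 bp in cKO and 25725 bp in control.

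The gene with the largest gain was Lhx9, with 21833 bp in cKO and 20339 bp in control. Pax3, of neural crest and muscle precursors, had 86023 bp in cKO and 85391 bp in control. Dlx3, of skin and placenta, had 8093 bp in cKO and 7659 bp in control. The other gains named by size were at Irx3 (407 bp), Barhl1 (364 bp) and Pax5 (336 bp). Lhx9, Pax3, Dlx3, Irx3, Barhl1 and Pax5, the 6 genes with the largest gains of H3K27me3, all had fewer H3K27ac bases in cKO, as given below for 5 of them, and at Barhl1 with 173 bp in cKO and 357 bp in control. That overlap was looked for after the values were seen, and fewer H3K27ac bases in cKO is also the more common direction over all genes. It did not extend to smaller gains of H3K27me3: Lhx5 (271 bp) and Lmx1b (96 bp) had more H3K27ac bases in cKO. Among the 6 largest losses of H3K27me3, Pax7 and Pax2 also had fewer H3K27ac bases in cKO. Lmx1a and Six2 had more, and Pax9 and Emx1 had no H3K27ac.

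The called peaks themselves were long. The widest H3K27me3 peak over each gene had a median width of 27907 bp in cKO and 27539 bp in control, and it held the whole window at 20 genes in each genotype. At 26 genes it was wider in cKO and at 26 wider in control, with a median difference of -0.5 bp, and at 32 genes the widths were within 1000 bp of each other. Dlx1 and Dlx2 shared 1 peak, chr2:71522130-71555652 in cKO and chr2:71522156-71555528 in control. Dlx6 and Dlx5 shared another, chr6:6839366-6885836 in cKO and chr6:6839396-6885673 in control.

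**Figure D3:**
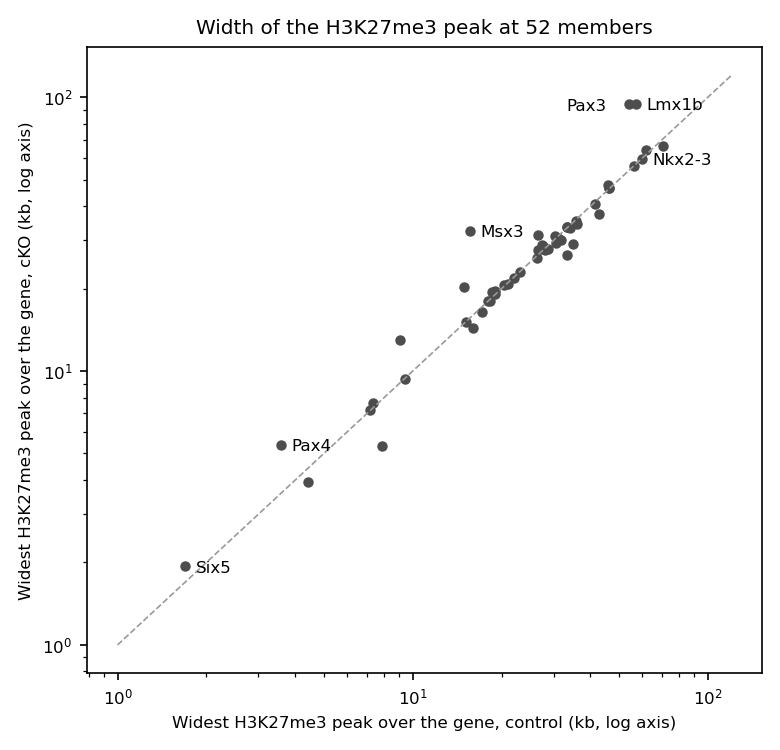
Width of the widest H3K27me3 peak over each of the 52 genes in cKO (y axis, kb, log scale) against control (x axis, kb, log scale), 1 point per gene, with Dlx1 and Dlx2 on 1 point and Dlx5 and Dlx6 on another; the dashed line marks equal widths. Most points lie on the line, and Pax3, Lmx1b, Msx3 and Pax4 lie above it, past 1.5-fold wider in cKO.

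At 4 genes the peak was more than 1.5-fold wider in cKO, and at 0 genes in control. It measured 94141 bp in cKO and 54084 bp in control at Pax3, 94361 bp in cKO and 56938 bp in control at Lmx1b, 32465 bp in cKO and 15682 bp in control at Msx3, and 5391 bp in cKO and 3589 bp in control at Pax4. At the first 3 the control list held nearly the same bases in several pieces. In control, 2 peaks covered 99.84% of the cKO peak at Pax3, 5 peaks covered 99.25% at Lmx1b and 3 peaks covered 99.03% at Msx3. One of the steadiest domains was at Nkx2-3, a gene of spleen and gut mesoderm, at 59649 bp in cKO and 59678 bp in control.

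H3K27ac was sparse at the 52 genes. A peak lay in the window of 20 genes in cKO (38.46%) and 21 in control (40.38%), against 72.76% of all genes in cKO and 72.66% in control. It was present in both genotypes at 17 genes, in cKO alone at 3, in control alone at 4 and in neither at 28. No gene reached 50% of its window. Emx1, Emx2, Msx1, Msx2, Msx3, Pax1, Pax4, Pax9 and 11 of the 13 Nkx genes had none in either list.

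Barhl2, which specifies ganglion and amacrine subtypes, had by far the largest share of its window under H3K27ac. Peaks covered 6861 bp of its 15644 bp window (chr5:106452523-106458166 for the gene body) in cKO and 7413 bp in control. In control a single peak of 6333 bp ran over most of the gene and its start, and in cKO 2 peaks of 3456 bp and 2594 bp lay in the same place. All of these bases were also inside H3K27me3 peaks, which covered the whole window in both genotypes. Lhx9 came next in the neural retina group, with 3644 bp in cKO and 3950 bp in control, the largest peak, of 2789 bp in cKO and 2290 bp in control, lying over the printed start.

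The other genes of the neural retina group had short peaks. Irx3 had 517 bp in cKO and 926 bp in control, Dlx2 236 bp in cKO and 885 bp in control, Dlx1 499 bp in cKO and 548 bp in control, and Lhx3 586 bp in cKO and 701 bp in control. Irx2 had none in cKO and 284 bp in control, and Irx4 had none in either. Of these 8 genes 6 carried the mark in cKO and 7 in control, and of the 38 genes known mainly from other tissues 12 did in each genotype. The Dlx1, Dlx2 and Irx3 peaks lay at or within about 1 kb of the starts, whereas the Lhx3 peaks lay up to about 5 kb before it, outside H3K27me3.

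Outside the retina genes, Six5 had the largest share of its window under H3K27ac. Its H3K27ac covered 3934 bp in cKO and 3694 bp in control, or 28.1% of the window in cKO and 26.4% in control, and ran over the start printed above. Pax5 had 4015 bp in cKO and 4305 bp in control, spread over 6 peaks in cKO and 5 in control, all more than 40 kb from the annotated start used. Six4 had 1528 bp in cKO and 1481 bp in control over its start, and Lmx1a 1371 bp in cKO and 1215 bp in control in 1 peak inside the gene. Nkx6-3, a stomach gene, had 816 bp in cKO and 731 bp in control.

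**Figure D4:**
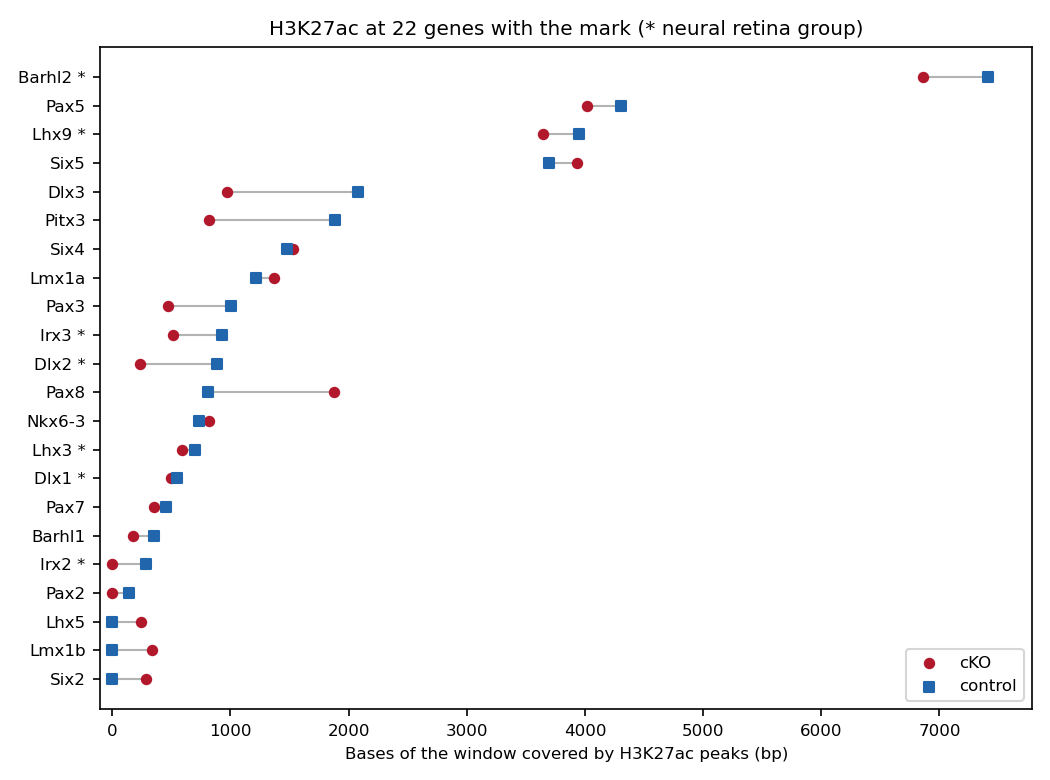
Bases of the window covered by H3K27ac peaks (x axis, bp) at 22 of the 24 genes with the mark in either genotype, ordered by the control value; circles are the cKO library, squares the control library, and an asterisk marks the neural retina group. The 7 marked retina genes lie lower in cKO as plotted, of which Lhx3 and Irx2 do not under other peak settings, and Pax8 is the gene with the largest gain in cKO.

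Across the 24 genes with a peak in either list, H3K27ac covered fewer bases in cKO at 16, more at 8 and equal numbers at 0. Over all 15309 genes with the mark, 63.1% had fewer in cKO, 36.8% more and 0.15% equal numbers, so the split of the 24 genes is near the split of all genes. The median difference was -144.5 bp at the 24 genes and -90 bp over all genes. The H3K27ac list covered 50.6826 Mb in cKO and 54.4156 Mb in control, a difference of -0.10 on the log2 scale, and scaling both to the same total left 15 genes with fewer and 9 with more. All 7 genes of the neural retina group with the mark (Barhl2, Dlx1, Dlx2, Irx2, Irx3, Lhx3 and Lhx9) had fewer bases in cKO, also after that scaling, but Lhx3 and Irx2 do not hold this direction under other settings. Lhx3 covered 0.32 percentage points of the window more in cKO with peaks of at least 300 bp and 2.01 more with peaks within 500 bp joined, and had no H3K27ac in the gene body alone. Irx2 had none in either genotype with peaks of at least 300 bp. Barhl2 kept the direction, but its difference was -0.55 percentage points of the window with peaks within 500 bp joined, against -3.53 without joining. The same direction was common in the related sets, with fewer bases in cKO at 7 of the 8 retinal relatives and at 18 of the 23 forkhead genes with the mark. Genes known from other tissues were even, with 7 more and 7 fewer. In bulk tissue, fewer cells of a type and less signal per cell cannot be told apart.

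Past 1.5-fold with at least 500 bp in the higher library, 1 of the 24 genes (4.167%) was higher in cKO, where the share over all genes was 1.67%. Lower in cKO were 5 of the 24 (20.83%), where the share over all genes was 4.0%. Genes with little of the mark passed the fold somewhat more often over all genes. Over all 7731 genes with 500 to 2500 bp in the higher library, 2.91% were past the fold with more in cKO and 6.34% with less. Of the 52 genes, 11 were in that range and held the 1 gain and the 5 losses. Whether the amount of the mark accounts for the larger share of losses was not tested. There is 1 library per genotype, so no replicate check stands behind any of them.

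The 5 lower genes were Dlx3, Pitx3, Dlx2, Pax3 and Irx3. Dlx3 had 968 bp in 4 peaks in cKO and 2082 bp in 6 peaks in control. Pitx3, which is required for the lens and for midbrain dopamine neurons, had 822 bp inside its window in cKO, from 1 peak at its edge, and 1886 bp in control, where 2 further peaks of 512 bp and 501 bp lay within the gene. Pax3 had 469 bp in cKO and 1002 bp in control. At Dlx2 a control peak of 885 bp stood against a cKO peak of 236 bp, and the 2 shared 161 bp. The cKO peak lay nearer the start: the Dlx2 start window held 63 bp of H3K27ac in cKO and none in control. At Irx3 1 control peak of 926 bp stood against 2 cKO peaks of 393 bp and 124 bp. With peaks within 500 bp joined, the Irx3 difference was -0.94 percentage points of the window, against -3.11 without joining. Irx3 was then no longer past the fold, which left 4 lower genes.

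The gene past the fold with more in cKO was Pax8, with 1880 bp in cKO and 811 bp in control. Of its peaks, 1 lay in the gene body and measured 879 bp in cKO and 621 bp in control, and 1 in the flank measured 798 bp in cKO and 190 bp in control. A further peak, of 203 bp, was called in cKO alone. None lay inside H3K27me3 or near the annotated start. With the gene body alone as the window, Pax8 was no longer past the fold. Lmx1b, Six2 and Lhx5 had 336 bp, 289 bp and 244 bp in cKO and none in control, each below the 500 bp minimum.

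A start peak of H3K27ac was present in 1 genotype only at a few genes. Six2 had one in cKO alone (1.11% of all genes did), at chr17:85688070-85688358, over the start printed above. Irx2 had one in control alone (1.24% of all genes did). The Irx2 peak was at chr13:72628945-72629228, just after the window printed above. Both peaks are under 300 bp wide. Start peaks of H3K27me3 in 1 genotype only occurred at 0 of the 52 genes, against 1.83% of all genes for cKO alone and 2.08% for control alone.

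H3K27ac at these genes often overlapped H3K27me3, which itself covered 67.5% of the bases of the 52 windows in cKO and 68.35% in control. Of their 29543 bp of H3K27ac in cKO, 64.69% lay inside H3K27me3 peaks, and of 33316 bp in control, 68.53%. Over all gene windows the shares were 6.947% in cKO and 7.068% in control. The overlap occurred at 16 genes in cKO and 18 in control, and 21 of the 42 peaks in cKO and 24 of the 44 in control lay wholly inside H3K27me3. Over all 52 genes the shares of H3K27ac inside H3K27me3 are thus close to the shares of the windows that H3K27me3 covers. Without Barhl2 and Lhx9 the shares of H3K27ac were 45.21% in cKO and 52.23% in control. H3K27me3 covered 67.24% of those remaining windows in cKO and 68.21% in control, so the closeness rests on these 2 genes. Whether both marks were on the same chromosomes or in different cells of the tissue was not tested.

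The 42 H3K27ac peaks in cKO and 44 in control had median widths of 321 bp in cKO and 453.5 bp in control. An ATAC peak in at least 1 library overlapped 35 of them in each genotype. Peaks in all 4 ATAC lists overlapped 16 of the cKO peaks and 21 of the control peaks. The 3 Lhx3 peaks of the cKO list had no ATAC peak in any library.

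Open chromatin was called at 38 to 52 of the 52 genes depending on the library, and its amount followed the library more than the genotype. ATAC peaks covered a median of 10.86% of the window in cKO replicate 1 and 1.939% in cKO replicate 2, against 0.7994% in control replicate 1 and 13.65% in control replicate 2. The high and low libraries are spread over both genotypes, which overlap throughout. Other genes had medians of 3.985% and 1.632% in the cKO libraries and 0.984% and 4.503% in the control libraries. So in the long lists the 52 genes had a larger share of their windows covered than other genes, and in control replicate 1 a smaller one. The median window was shorter at the 52 genes, 16280 bp against 27630 bp at other genes.

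**Figure D5:**
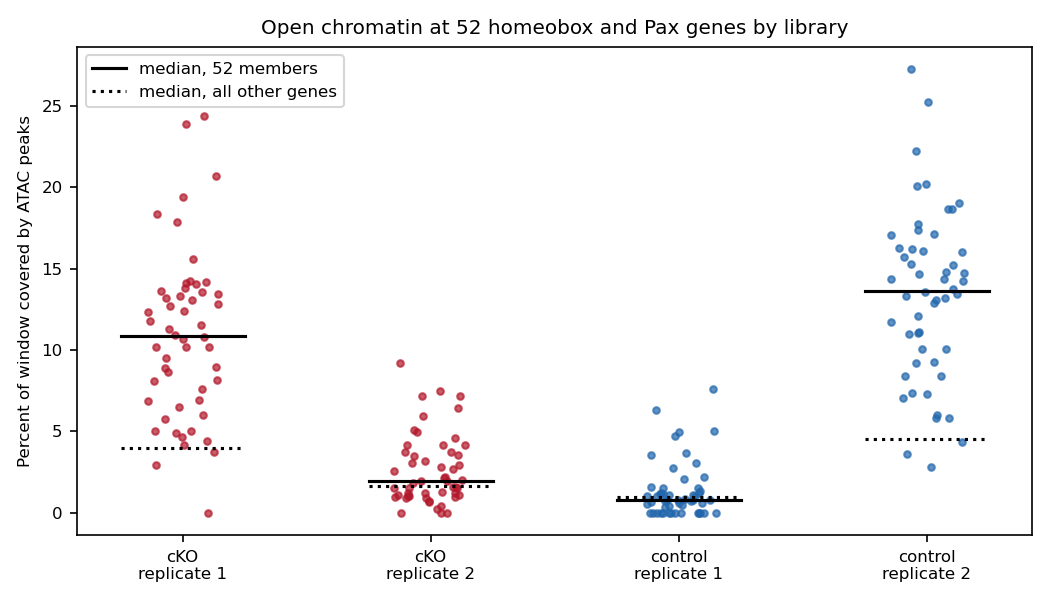
Percent of the window covered by ATAC peaks (y axis) at the 52 genes in each library, 1 point per gene, cKO replicates on the left and control replicates on the right; solid lines are medians of the 52 genes and dotted lines medians of all other genes. cKO replicate 1 (10.86%) and control replicate 2 (13.65%) are high, and cKO replicate 2 (1.939%) and control replicate 1 (0.7994%) low.

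At least 1 ATAC peak lay in the window of 51 (98.08%) and 49 (94.23%) of the 52 genes in cKO replicates 1 and 2. In control replicates 1 and 2 the numbers were 38 (73.08%) and 52 (100%). Over all genes the shares with a peak were 81.32% and 76.15% in the cKO replicates and 71.38% and 82.31% in the control replicates. Pax4 had none in 3 of the libraries and 483 bp in control replicate 2. Near the start, peaks were called at 46 (88.46%) and 34 (65.38%) genes in the cKO replicates and at 21 (40.38%) and 49 (94.23%) in the control replicates. Over all genes these shares were 68.8% and 62.84% in the cKO replicates and 58.05% and 69.82% in the control replicates. Barhl2 had 2440 and 928 bp in the cKO replicates and 778 and 3138 bp in the control replicates. Pitx3 had 2663 and 1650 bp in the cKO replicates and 1084 and 2705 bp in the control replicates. At both genes the control values enclose the cKO values.

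No change of open chromatin between the genotypes was detected at any of the 52 genes. Covered bases were tested with limma on log2(bases + 100), centred on each library's median, over 16750 genes with a peak in at least 2 of the 4 lists, and 51 of the 52 genes passed that filter. With Benjamini-Hochberg adjustment 0 genes were called (0.0% of all genes tested), 4 of all genes had an unadjusted p under 0.05, and of the 51 genes 0 did. The p-values measure only the spread between these libraries. A threshold of 0.05 would pass far more than 4 of 16750 genes if nothing changed. The test could therefore hardly call any gene here, and its 0 calls do not show that nothing changed. Of the 51, 33 had a higher mean in cKO and 18 a lower one. Their median difference was 0.13 (log2), where that of all genes was 0.00 and the standard deviation between replicates was 1.05.

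The largest mean differences were small beside their errors. Nkx2-4, of the hypothalamus, differed by 0.79 ± 1.04 (log2, SE), Msx1 by 0.74 ± 0.69, Lhx5, of forebrain and hindbrain neurons, by 0.63 ± 1.20 and Pax8 by 0.60 ± 1.40. In the other direction, Nkx1-2 differed by -0.52 ± 1.30, Dlx5, of forebrain and jaw, by -0.45 ± 0.74, Pax9 by -0.43 ± 0.81 and Nkx2-6 by -0.40 ± 1.20. The adjusted p was 1.00 for all 8 by limma. The direction of the median depended on single libraries: it was -0.41 without cKO replicate 1, 0.65 without cKO replicate 2, -0.70 without control replicate 1 and 0.91 without control replicate 2. Without control replicate 2, limma called 1 of the 51 genes, among 432 of all genes called.

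The same held for single open regions. The 4 lists joined into 116384 regions, of which 314 lay in the windows of the 52 genes. A region called in both cKO libraries and in neither control library occurred 318 times over all regions (0.273%) and 0 times at the 52 genes. The reverse occurred 145 times over all regions (0.125%) and 0 times at the 52 genes. A count of 0 among 314 regions is near both background shares.

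Of the 314 regions, 66 (21.02%) were in all 4 lists, against 28.23% of all regions, and 111 (35.35%) were in the long lists alone, cKO replicate 1 and control replicate 2, against 28.02%. The regions in all 4 lists fell at 38 of the 52 genes, with up to 4 per gene, as at Pax3, Dlx3, Lmx1b and Pax5. They had a median width of 822.5 bp, against 498 bp for those in the long lists alone.

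Most open regions at these genes lay under H3K27me3. Of the 314, 281 (89.49%) overlapped H3K27me3 in cKO and 278 (88.54%) in control, against 12.34% of all regions in cKO and 12.43% in control. H3K27ac overlapped 36 (11.46%) in cKO and 38 (12.1%) in control, against 36.54% of all regions in cKO and 36.75% in control. The regions in all 4 lists had the same pattern. Among these 66, H3K27me3 was present at 61 in cKO and 59 in control, and H3K27ac at 21 in cKO and 24 in control, whereas among all regions of that kind H3K27ac was present at 69.54% in cKO and 69.81% in control. In the neural retina group, H3K27ac was present at 7 of 11 such regions in cKO and 8 of 11 in control, and all 11 lay in H3K27me3 in both genotypes. ATAC-seq and ChIP-seq were made from tissue of different labelled age and handling, so these overlaps join separate samples.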

How the data were processed

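Sample titles gave the groups and the replicate numbers. Each deposited file lists peaks by chromosome, start and end. The score column the authors deposited is 0 throughout, so no height, p-value or count is held. The submitters' processing notes name Bowtie2, deepTools, MACS2 and the build mm10. Peak thresholds, broad or narrow calling and any input subtraction are not stated in these sources. The 2 input samples were not analysed here. Peaks on chromosomes 1 to 19 were joined with RefSeq gene positions (GRCm38.p6), and covered bases, peaks within 1 kb of a start (of either gene end for 14 genes without one in the start table) and widest peaks were computed (Python 3.11.15, pandas 2.3.3). ATAC changes were tested with limma 3.58.1 in R 4.3.3. The labels give ATAC experiments on different days but do not say which libraries share a day, so replicate numbers were not used as a block. Libraries with the same replicate number also deviated oppositely over genes (correlation -0.79).

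Some of the 52 genes are counted in the totals and not reported here by name. The genes and lists were chosen with earlier results of these data known. Genes were named for the 6 highest shares and 6 largest changes per mark, a start peak in 1 genotype, the neural retina group, limma calls and the 4 largest ATAC changes per direction. Alternatives were other windows, a peak width minimum of 300 bp, joining within 500 bp, equal list lengths, other scalings and pseudocounts, no filter, and each library left out.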

Additional observations from a re-analysis of the deposited data

How the results depend on the processing

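Depth behind the lists is unknown, so absence of a peak is no proof of absence of the mark, and windows wholly under H3K27me3 cannot show a gain. Of the values computed under the alternatives for counts and medians over the genes, 18 moved, 2 passed the threshold anew, and 132 did neither: counts within 1.5 times, calls on the same side, and ATAC medians within the standard deviation between replicates of 1.05, although some of those medians changed sign. H3K27me3 had more bases in cKO at 38 genes after scaling by list total, of which 20 are wholly covered windows that any such factor moves, and fewer at 39 with 50 kb either side (57.18% of all genes). H3K27ac had more at 5 genes with peaks of at least 300 bp, and was past 1.5-fold higher at 0 with the gene body alone and at 2 with peaks within 500 bp joined. With each ATAC library left out in turn, limma called from 0 to 1 of the genes and from 0 to 432 of all genes, and the median difference ran from -0.70 to 0.91. In the same way, regions in cKO alone ran from 0 to 42 (18.6% of all regions at the highest) and in control alone from 0 to 68 (19.4%), and a reciprocal overlap of 50% gave 1 in cKO alone (0.758% of all). With the replicate number as a block, limma called 0 genes. Taken as labelled pairs, number 1 gave 177 of 247 regions in cKO alone (62.2% of all regions), and number 2 gave 5 in cKO alone (1.61%) and 185 in control alone (51.5%) of 299. The crossed pairing, added after seeing the data, gave 0 calls by limma with 499 of all genes at an unadjusted p under 0.05, and regions in cKO alone and control alone of 17 (6.04% of all) and 70 (20.8%) among 309 for cKO replicate 1 with control replicate 2, and of 55 (39.3%) and 8 (3.39%) among 135 for cKO replicate 2 with control replicate 1. The cause of these shifts was not tested. The block and the crossed block left the limma calls at the 52 genes as they were.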
